A study of Alligator mississippiensis with 17 samples.

Results

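American alligators replace their teeth throughout life, and the comparison described here sets the dental lamina at early growth of the new tooth against the dental lamina before tooth initiation. It uses 9 of the 17 RNA sequencing libraries of the series, chosen by their stage labels: 5 from the pre-initiation stage (PIS, replicates 1 to 5) and 4 from the early growth stage (EG, replicates 1 to 4). The other 8 libraries, from the initiation stage (IS) and from replacement teeth (RT), are given only as levels beside some genes. Both groups were dissected dental lamina of untreated, laboratory-raised animals labelled as 1 year old and kept at 30 degrees, and no strain, sex or genotype is given. A separate label field names the pre-initiation stage for the EG libraries too, so titles and descriptions, which match the column names, set the groups. Whether each library stems from an animal of its own is not stated, so the spread behind every p-value is that of the samples at hand and may be technical. Of 20703 genes in the deposited table, 12489 reached 1 RPKM (reads per kilobase of gene model, scaled to sequencing depth) in at least 3 of the 9 libraries and were tested.

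The dental lamina is a strand of oral epithelium that runs beside each functional tooth and ends in a bulge from which the successor buds. In vertebrate teeth, buds form where epithelium and the underlying mesenchyme exchange signals of the SHH, FGF, WNT, BMP, ectodysplasin and Notch families, and signalling centres of the epithelium secrete several of these ligands. The inner layer of the growing epithelium later differentiates into ameloblasts, which secrete and process the enamel matrix.

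All values below are scaled RPKM, that is, RPKM divided by a median-ratio factor per library (0.83 to 1.21), because the median gene stood 0.34 higher in EG on the log2 scale as deposited and 0.02 higher after scaling. Fold changes are differences of log2(scaled RPKM + 0.5), EG minus PIS, and they understate the change of genes near 0. Where a number in parentheses is followed by an adjusted p, it is the log2 fold change, and levels with ± are the mean and SD (n = 5 in PIS and 4 in EG). A gene was called at an adjusted p under 0.05 in limma. Under these settings 3462 of 12489 genes were called, a background of 27.7%, with 1760 higher in EG (14.1%) and 1702 lower (13.6%). Each count of list members under these settings stands beside these shares, also where they are not repeated. A count given for another setting is to be read beside the totals of that setting. Without PIS replicates 1 to 5 in turn, 1602, 1559, 1740, 1743 and 1782 genes were higher and 1654, 1542, 1695, 1725 and 1704 lower. The genes tested were then 12415, 12412, 12408, 12435 and 12398. With no filter 1855 of 19937 genes were higher and 1590 lower, and with quantile normalization 1813 and 1759 of 12489. A gene near 0 in either group entered the test only through the other group, which can raise the share called in a list. Of all tested genes, 26.9% had PIS and EG ranges that did not overlap, 14.4% with EG above and 12.5% with EG below. With a log2 fold change of at least 1 in size also required, 1330 genes passed (10.6%), 689 of them higher (5.52%) and 641 lower (5.13%). At the far ends, 57 called genes had a log2 fold change of 3 or more, and 114 had one of -2 or less. The count of called genes was 2017 without EG replicate 1 (1017 higher and 1000 lower of 12350) and 2126 without EG replicate 3 (1066 and 1060 of 12363). It was 2773 without EG replicate 2 (1379 and 1394 of 12407) and 2483 without EG replicate 4 (1242 and 1241 of 12370). With RPKM as deposited, 4929 of 12489 genes were higher and 879 lower, so 84.9% of called genes were higher.

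**Figure D1:**
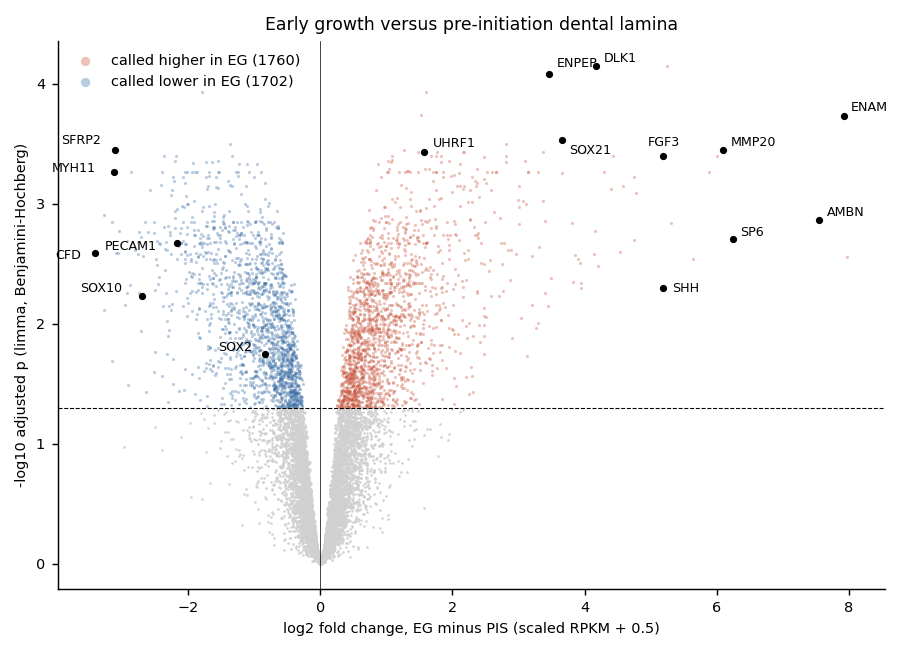
Each point is 1 of 12489 genes, with the log2 fold change (EG minus PIS) on the x axis and -log10 of the adjusted p on the y axis; the dashed line marks the 0.05 threshold. ENAM (7.93) and AMBN (7.56) lie farthest right among the labelled genes, CFD (-3.41) farthest left, and ENPEP, an aminopeptidase gene labelled after its values were seen, changed by 3.47, adjusted p = 8.33e-05.

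The 9 libraries held 9.67 to 37.7 M alignments, the fewest in PIS replicate 3. On a principal component analysis, component 1 took 58.5% of the variance, on which the EG libraries lay at 33.9 to 58 and the PIS libraries at -65.8 (replicate 5) to -11.3 (replicate 4). Epithelial markers were present in all 9 libraries, but PIS replicate 5 stood apart. Of 14 markers of dental lamina and oral epithelium, 11 were in the table (KRT5, KRT17 and CDH3 were not analysed here), and they summed to 117 scaled RPKM there, beside 535 to 749 in the other PIS libraries and 762 to 1011 in EG. Tested singly, 1 of the 11 was called higher in EG and 1 lower. Genes that PIS replicate 5 set apart were chosen after their values were seen. Its cadherin gene CDH1 stood at 0.796, and the remaining PIS libraries ranged from 11.6 to 26.2, and its alpha globin gene HBA1 at 315 beside 2.6 to 10.2. PIS replicate 4 was the pre-initiation library closest to EG, and it held SHH, SP6 and other genes that were low in the other PIS libraries. Marker sums of other tissues differed between the groups in both directions. Markers of fibroblasts and mesenchyme (10 of 11 in the table) summed to 6853 to 10678 scaled RPKM in PIS and 3159 to 5309 in EG. Those of Schwann cells and nerve (7 of 7) summed to 90.7 to 675 and 33.3 to 99.7. Endothelial markers (8 of 8) summed to 66.6 to 199 and 28 to 52.1. Smooth muscle and pericyte markers (6 of 8) summed to 175 to 454 and 56.4 to 92.7. Leukocyte markers (7 of 8) summed to 41.5 to 76.9 and 35.2 to 59.5, with PTPRC and CD68 under 1 in every library. Odontoblast and bone markers (6 of 7) summed to 24.5 to 65.3 in PIS and 53.5 to 97.7 in EG, and skeletal muscle markers (3 of 5) to 4.42 to 17.3 and 11.9 to 32.5. Ameloblast markers (4 of 7), among them ENAM, AMBN and MMP20, summed to 0 to 5.0 in PIS and 113 to 2220 in EG. HBA1, apart from PIS replicate 5, was lower in PIS than in EG (21.4 to 51.6). The sums of the Schwann cell, leukocyte, bone and skeletal muscle markers overlapped between the groups. The part that these differences in marker levels play in the results below was not tested. In such bulk samples, fewer cells of a type and less RNA per cell cannot be told apart.

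**Figure D2:**
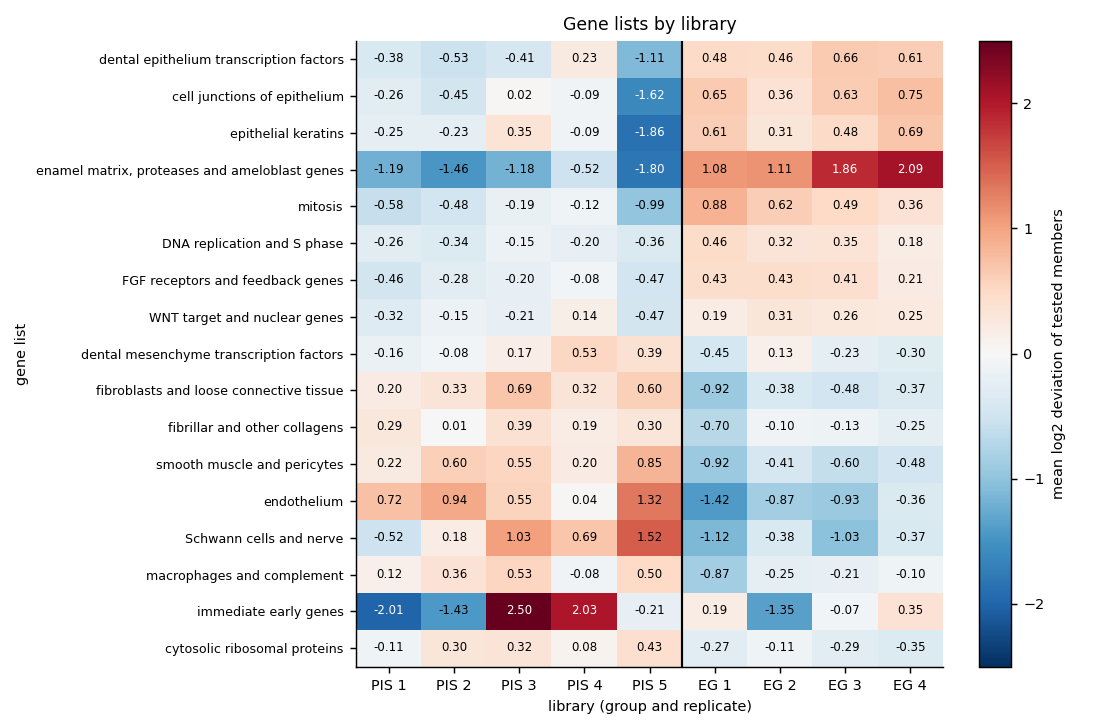
Rows are gene lists and columns the 9 libraries; colour and number give the mean over the list's tested members of their log2 deviation from the 9-library mean. The enamel and mitosis rows are above 0 in all 4 EG libraries and below 0 in all 5 PIS libraries, PIS 5 is lowest for the epithelial rows, and the immediate early gene row splits the PIS libraries from -2.01 to 2.5.

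The secreted and transmembrane signals of tooth formation gave some of the greatest rises. SHH, the hedgehog ligand of dental epithelium, stood at 0.181, 0.0349, 0.268, 25.3 and 0 scaled RPKM in PIS replicates 1 to 5 and at 67.5, 34.9, 48.2 and 41.9 in EG replicates 1 to 4 (log2 fold change 5.19 ± 1.02 SE, adjusted p = 0.00509). All EG libraries were above all PIS libraries, and PIS replicate 4 alone among the PIS libraries expressed the gene at more than a trace. That library was set apart by its SHH level, so the change without it, 6.28, is a description only. With each library left out in turn SHH stayed called (adjusted p up to 0.0203). It was not called without EG replicates 1 and 4 together (adjusted p = 0.0819). At the intermediate initiation stage the 3 libraries held 3.97 to 19.3. PTCH1, the hedgehog receptor and a transcriptional target of the pathway, rose from 17.6 ± 7.74 to 42.5 ± 3.29 (1.38, adjusted p = 0.00897), and so did SCUBE1, of a family that helps to release hedgehog ligands (1.81, adjusted p = 0.0173; not called without EG replicate 1, adjusted p = 0.0611). BOC, a hedgehog co-receptor, fell (-1.44, adjusted p = 0.00213). The other 13 of 17 tested hedgehog genes were not called. Among these was the target gene GLI1 (0.17, adjusted p = 0.729), chosen after its values were seen. The list's 3 higher and 1 lower members of 17 stand beside 14.1% and 13.6% of all genes, and its median was 0.12 beside 0.02 for all genes.

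FGF3, a fibroblast growth factor of tooth buds, was near 0 in every PIS library (0, 0.0862, 0, 0.535 and 0) and at 48.9, 34.1, 19.6 and 5.94 in EG (log2 fold change 5.18 ± 0.51 SE, adjusted p = 0.000404). The groups did not overlap, and the EG level varied between libraries from 5.94 in replicate 4 to 48.9 in replicate 1. It was already at 8.92 to 30.0 in the initiation libraries. FGF10, the ligand of dental mesenchyme that supports epithelial growth, rose from 2.97 ± 0.911 to 12 ± 3.15 (1.85, adjusted p = 0.000595), FGF1 was higher (1.28, adjusted p = 0.0299; not called without PIS replicate 2 or 3 or EG replicate 1, 2, 3 or 4, adjusted p up to 0.0776), and FGF7, a mesenchymal ligand for epithelial FGFR2, fell (-1.47, adjusted p = 0.0034). FGF2 (-0.34), FGF9 (0.53) and FGF16 (0.46) were not called. Some genes that FGF signalling is known to induce were higher too. IL17RD, a feedback inhibitor, rose from 1.32 ± 0.682 to 14.3 ± 2.35 (3.14, adjusted p = 0.00054) with ranges of 0.133 to 1.87 and 12 to 17. The ETS factor gene ETV4 rose from 4.09 ± 2.24 to 26.1 ± 1.83 (2.66, adjusted p = 0.00054), as did the Sprouty inhibitor gene SPRY2 (1.17, adjusted p = 0.00149) and the decoy receptor gene FGFRL1 (1.66, adjusted p = 0.00539). SPRY4 (1.5, adjusted p = 0.0466; not called without PIS replicate 2 or 5 or EG replicate 1, 2, 3 or 4, adjusted p up to 0.135) and ETV1 (0.69, adjusted p = 0.0474; not called without PIS replicate 1, 2, 3 or 5 or EG replicate 1, 2 or 3, adjusted p up to 0.136) were higher with all 9 libraries. Their relatives ETV5 (0.29), DUSP6 (0.061) and SPRED1 (0.53) were not called. FGFR2, the receptor of FGF3, FGF7 and FGF10 in epithelium, was lower (-0.87, adjusted p = 0.0219; not called without EG replicate 1, adjusted p = 0.0549; with RPKM as deposited, adjusted p = 0.0854). In all, 6 of 14 receptors and feedback genes were higher and 1 lower, and of the 7 ligands tested 3 were higher and 1 lower.

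In the ectodysplasin pathway 2 of 7 tested genes were higher and 0 lower. EDAR, the ectodysplasin receptor gene, stood at 0.575, 1.12, 0.447, 3.23 and 0 in PIS and 8.77, 6.52, 8.37 and 12.1 in EG (log2 fold change 2.88 ± 0.47 SE, adjusted p = 0.00242). The receptor gene TNFRSF19 was higher by less (0.64, adjusted p = 0.0268; not called without EG replicate 1, 3 or 4, adjusted p up to 0.0882). The adaptor gene EDARADD (0.55, adjusted p = 0.079) and the ligand gene EDA (-0.37, adjusted p = 0.719) were not called.

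In the WNT pathway, genes moved in both directions. Of 12 ligands tested, 5 were higher and 1 lower, with a median of 0.60, and the count higher was 3 without EG replicate 1. WNT10A, a ligand gene in which human mutations cause missing teeth, rose from 5.82 ± 3.9 to 17.2 ± 6.26 (1.66, adjusted p = 0.0198; not called without EG replicate 1, adjusted p = 0.0678). WNT3A (1.83, adjusted p = 0.00505), WNT7A (1.81, adjusted p = 0.015) and WNT5A (0.95, adjusted p = 0.00567) were higher, as was WNT2 (1.13, adjusted p = 0.0446; not called without PIS replicate 1, 3 or 5 or EG replicate 1, 2 or 3, adjusted p up to 0.125), while WNT2B fell (-1.24, adjusted p = 0.0111). Of 24 WNT receptor, secretion and R-spondin genes tested, 5 were higher and 2 lower (median 0.27), with 13 higher with RPKM as deposited. RSPO2, an R-spondin that amplifies WNT signals, stood at 0.366, 0.995, 0.278, 0.511 and 1.67 in PIS and 18.6, 10.9, 7.54 and 4.79 in EG (log2 fold change 3.07 ± 0.40 SE, adjusted p = 0.000942). RSPO4 rose from 55 ± 14.8 to 109 ± 24.1 (1, adjusted p = 0.00618), and RSPO3 fell from 7.68 ± 7.79 to 0.877 ± 0.489 (-2.07, adjusted p = 0.036; not called without PIS replicate 2 or 4 or EG replicate 1, 3 or 4, adjusted p up to 0.0945). WLS, which encodes the sorting receptor that secretes WNT ligands, rose (1.04, adjusted p = 0.00257). Among nuclear and target genes 5 of 14 were higher and 1 lower. TCF7, which encodes a nuclear effector, rose from 7.25 ± 3.6 to 26.4 ± 0.808 (1.92, adjusted p = 0.00183), with the target genes SP5 (1.42, adjusted p = 0.00766) and CCND1, the cyclin D1 gene (1.02, adjusted p = 0.00128). DACT1, an intracellular modulator of WNT signalling, fell from 94.7 ± 16 to 31.9 ± 11.6 (-1.62, adjusted p = 0.00157). LEF1 (12.4 ± 5.98 to 11.3 ± 2.37; 0.007, adjusted p = 0.991) and AXIN2 (14 ± 3.35 to 11.4 ± 1.02; -0.25, adjusted p = 0.347), common readouts of WNT activity, were not called. LEF1 changed sign under several settings. AXIN2 was called lower without PIS replicate 5, its lowest PIS library (-0.43, adjusted p = 0.0155), and was 0.087 with RPKM as deposited (adjusted p = 0.744).

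Of 11 secreted inhibitors and their co-receptor genes tested, 3 were higher and 6 lower. SOSTDC1, which encodes a secreted inhibitor of WNT and BMP signals in dental epithelium, stood at 2.29, 2.2, 9.25, 14.6 and 7.62 in PIS and 128, 97.7, 133 and 128 in EG (log2 fold change 4.3 ± 0.47 SE, adjusted p = 0.00054). The receptor-binding inhibitor gene DKK1 rose from 0.648 ± 0.973 to 4.74 ± 2.6 (2.41, adjusted p = 0.0102), with its co-receptor gene KREMEN1 (1.47, adjusted p = 0.00384). SFRP2, a secreted frizzled-related inhibitor, fell from 77.3, 59.6, 67.1, 78.4 and 94.4 in PIS to 4.26, 13.7, 7.02 and 10.7 in EG (log2 fold change -3.11 ± 0.28 SE, adjusted p = 0.000354), and SFRP4 from 36.9 ± 21.4 to 3.88 ± 2.99 (-3.29, adjusted p = 0.00772). Neither gene's ranges overlapped. FRZB (-2.05, adjusted p = 0.000547), SFRP1 (-1.28, adjusted p = 0.00285), WIF1 (-1.01, adjusted p = 0.00455; with quantile normalization, adjusted p = 0.0717) and DKK3 (-0.79, adjusted p = 0.0209; not called without EG replicate 1, 2 or 3, adjusted p up to 0.0604; with RPKM as deposited, adjusted p = 0.0884) were lower as well. The fibroblast and mesenchyme marker sums given above were also lower in EG, and their part in these falls was not tested.

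**Figure D3:**
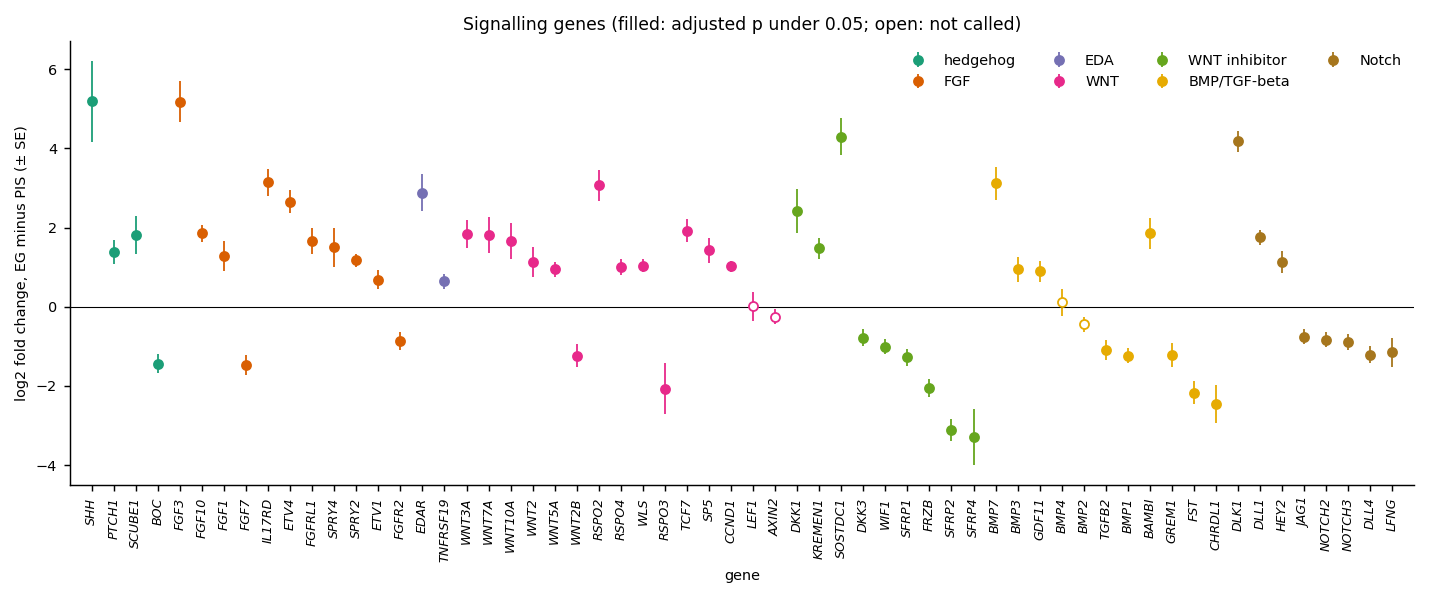
Points give the log2 fold change (EG minus PIS) on the y axis with its SE for signalling genes named on the x axis, coloured by pathway; filled points were called and open points were not. SHH, FGF3, SOSTDC1 and DLK1 lie above 4, and SFRP2 and SFRP4 below -3.

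BMP ligands did not move together. BMP7, a ligand of dental epithelium and mesenchyme, stood at 0.496, 1.15, 1.14, 3.28 and 0.19 in PIS and 16.2, 11.7, 11.1 and 10.8 in EG (log2 fold change 3.12 ± 0.41 SE, adjusted p = 0.00101). BMP3 (0.94, adjusted p = 0.0452; not called without PIS replicate 1, 2 or 4 or EG replicate 1, 2, 3 or 4, adjusted p up to 0.112) and GDF11 (0.89, adjusted p = 0.0291; not called without PIS replicate 1 or 2 or EG replicate 1, 2, 3 or 4, adjusted p up to 0.086) were higher with all 9 libraries. TGFB2 (-1.08, adjusted p = 0.0107) and BMP1, which encodes a procollagen protease rather than a signal (-1.24, adjusted p = 0.00182), fell. BMP4, the classical mesenchymal BMP of tooth buds, went from 4.69 ± 2.19 to 4.86 ± 1.5 (0.11, adjusted p = 0.838), and BMP2 (-0.44, adjusted p = 0.113) and the activin subunit gene INHBA (0.10, adjusted p = 0.668) were not called either. Among secreted BMP and activin antagonists, FST, the follistatin gene, fell from 32.7 ± 10.1 to 7.13 ± 2.81 (-2.17, adjusted p = 0.0011), the chordin-like gene CHRDL1 from 65.2 ± 25.1 to 13 ± 6.74 (-2.45, adjusted p = 0.00466), and the gremlin gene GREM1 (-1.22, adjusted p = 0.0156) also fell. BAMBI, which encodes a pseudoreceptor that dampens BMP and TGF-beta signals, rose from 22.1 ± 12.6 to 73.4 ± 22.5 (1.85, adjusted p = 0.00671). The TGF-beta receptor genes TGFBR2 (-1.35, adjusted p = 0.00547) and TGFBR3 (-1.65, adjusted p = 0.00459) were lower, and the activin receptor genes ACVR1B (0.51, adjusted p = 0.0121) and ACVR2B (1.1, adjusted p = 0.0115) higher. Of 28 receptors, inhibitors and targets, 7 were higher and 7 lower, and the count higher was 3 without EG replicate 1 or 3 and 4 without PIS replicate 1 or 5 or EG replicate 4. Of 13 ligands 3 were higher and 2 lower, and the count higher was 1 without PIS replicate 1 or 2 or EG replicate 1, 2, 3 or 4.

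Notch pathway genes moved in both directions. DLK1, which encodes a non-canonical ligand, stood at 0, 0.0512, 0.236, 0.202 and 0 in PIS and 14, 13.6, 9.64 and 5.8 in EG (log2 fold change 4.18 ± 0.26 SE, adjusted p = 7.08e-05), with every EG library above every PIS library. The ligand gene DLL1 rose from 5.19 ± 0.765 to 19.1 ± 5.63 (1.75, adjusted p = 0.000547), and HEY2, a target gene, also rose (1.14, adjusted p = 0.0129). JAG1 (-0.76, adjusted p = 0.0118), the endothelial ligand gene DLL4 (-1.21, adjusted p = 0.00326), and the receptor genes NOTCH2 (-0.83, adjusted p = 0.0103) and NOTCH3 (-0.89, adjusted p = 0.00793) fell, and NOTCH3 is also expressed by mural cells. The glycosyltransferase gene LFNG was lower as well (-1.15, adjusted p = 0.0372; not called without PIS replicate 1, 2 or 5 or EG replicate 1, 3 or 4, adjusted p up to 0.115). Together 4 of 18 members were higher and 5 lower, and with RPKM as deposited 3 were lower, without JAG1 (adjusted p = 0.0551) and LFNG (adjusted p = 0.0678).

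Transcription factor genes of dental epithelium were higher in 10 of 28 tested and lower in 2, with a median of 0.69. The median was 0.22 without PIS replicate 5, and the count higher was 6 without EG replicate 1, 2 or 3. SP6, a zinc finger factor that ameloblast differentiation depends on in mice, stood at 0, 0.154, 0.475, 22.8 and 0.0501 in PIS and 124, 92.4, 95.4 and 93.8 in EG (log2 fold change 6.25 ± 0.98 SE, adjusted p = 0.00199). As with SHH, PIS replicate 4 was the exception within its group, and the change without it, 7.3, is likewise a description only. With each library left out in turn SP6 stayed called (adjusted p up to 0.00836). DLX3, a homeobox gene in which human mutations disturb enamel and hair, rose from 17.7 ± 21.3 to 125 ± 27.7 (3.31, adjusted p = 0.00229), and its neighbour in the family DLX4 from 4.79 ± 5.77 to 61 ± 24 (4.15, adjusted p = 0.00262). SOX21 rose from 0.232 ± 0.375 to 8.18 ± 1.95 (3.66, adjusted p = 0.000294), and the Iroquois gene IRX5 (1.78, adjusted p = 0.00253) and the chromatin organiser gene SATB1 (2.24, adjusted p = 0.0029) were higher. SOX2, a marker of progenitors in the dental lamina, was low throughout (3.43, 4.3, 3.14, 2.08 and 2.84 in PIS and 0.902, 1.65, 1.96 and 1.7 in EG) and lower in EG (log2 fold change -0.83 ± 0.22 SE, adjusted p = 0.0181). The ranges did not overlap, but they lay close together (2.08 in PIS replicate 4 and 1.96 in EG replicate 3), and the call was lost without EG replicate 1 (adjusted p = 0.0594) and with RPKM as deposited (adjusted p = 0.0591). TP63, an identity factor gene of stratified epithelium, was not called (1.42, adjusted p = 0.0906), and without PIS replicate 5 it changed by 0.81 (adjusted p = 0.00996).

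Of 31 homeobox and other factors of dental mesenchyme tested, 12 were lower and 4 higher, with a median of -0.41 (-0.17 without PIS replicate 4). The summed fibroblast and mesenchyme markers were lower in EG as well, and their part in these falls was not tested. EYA1, a transcriptional cofactor gene, fell from 2.59, 5.02, 6.77, 6.53 and 12.6 in PIS to 1.06, 2.29, 1.21 and 1.73 in EG (log2 fold change -1.68 ± 0.36 SE, adjusted p = 0.00712). PRRX1, a general mesenchymal factor, fell from 53 ± 9.11 to 14.7 ± 6.89 (-1.96, adjusted p = 0.00287), with MEOX2 (-2.3, adjusted p = 0.00155) and FOXF2 (-1.16, adjusted p = 0.00915). MSX1, which mesenchyme of the tooth germ needs in mice, fell from 67.2 ± 19.6 to 26.1 ± 8.05 (-1.33, adjusted p = 0.00491), whereas its paralog MSX2, which enamel epithelium also uses, rose from 9.09 ± 11.9 to 51.5 ± 14.3 (3.3, adjusted p = 0.00981). DLX5 (1.35, adjusted p = 0.015), RUNX1 (1.52, adjusted p = 0.00316) and BARX2 (1.7, adjusted p = 0.0108), placed in the same list, rose too. In bulk samples the list does not show whether mesenchyme or epithelium held the transcripts of these genes. PAX9 went from 8.36 ± 2.67 to 7.85 ± 0.219 and was not called (-0.037, adjusted p = 0.908), with a sign that changed under other settings.

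Some enamel genes, among them ENAM, AMBN and MMP20, went from near 0 to high expression. Of 20 tested enamel matrix, protease and ameloblast genes, 13 were higher and 0 lower, with a median of 1.70. Some, such as ENAM, passed the filter only through EG. With no filter, 13 of 24 were higher and 0 lower, with a median of 1.37. ENAM, the enamelin gene, stood at 0.102, 0, 0, 0.333 and 0.288 in PIS and 43.8, 73.8, 358 and 469 in EG (log2 fold change 7.93 ± 0.62 SE, adjusted p = 0.000186). AMBN, the ameloblastin gene, stood at 0.483, 0, 0.796, 1.71 and 3.14 and 29.1, 119.6, 799 and 1640.5 (log2 fold change 7.56 ± 1.05 SE, adjusted p = 0.00136), and MMP20, whose protease cuts enamel proteins, at 0.0481, 0, 0, 1.95 and 0.526 and 39.9, 25.1, 83.3 and 109 (log2 fold change 6.1 ± 0.54 SE, adjusted p = 0.000354). In all 3 genes every EG library was above every PIS library. EG replicates 3 and 4 held more of each than replicates 1 and 2. The size of these changes depends on the pseudocount, since the PIS values are near 0. ENAM changed by 9.56 with a pseudocount of 0.1 and 7.08 with 1. At the initiation stage ENAM held 0 to 0.0306 and AMBN 0.13 to 0.255, as low as before initiation, and in replacement teeth they held 10.1 to 1228 and 12.9 to 4331. FAM20A, in which human mutations cause enamel and kidney disease, rose from 7.48 ± 3.2 to 23.2 ± 0.961 (1.65, adjusted p = 0.00138). The amelogenin gene is not listed under its usual symbols and was not analysed here.

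**Figure D4:**
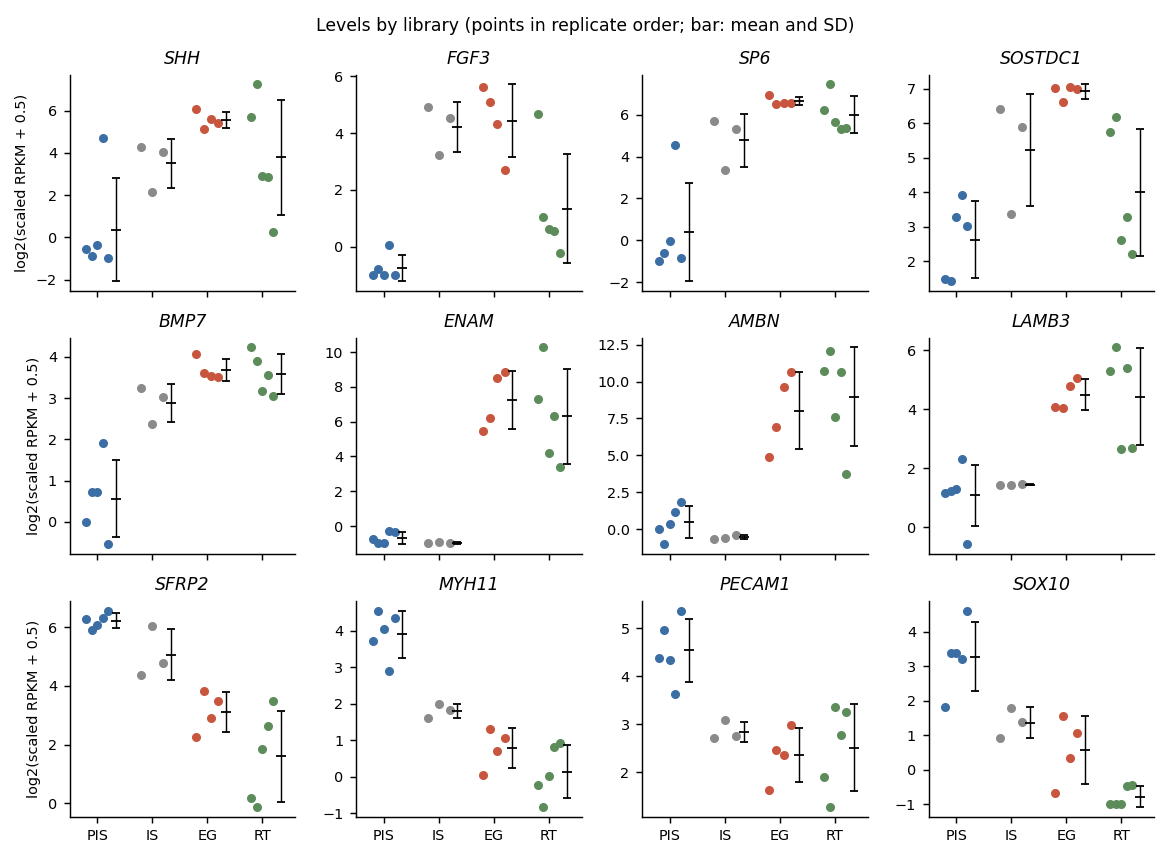
Each panel plots 1 gene as log2(scaled RPKM + 0.5) in the 17 libraries by group (PIS, IS, EG, RT), with the group mean and SD beside the points. SHH, FGF3, SP6, SOSTDC1 and BMP7 already stood above most PIS libraries at IS, ENAM and AMBN were at PIS levels in IS and higher in EG, and SFRP2, MYH11, PECAM1 and SOX10 were lower in EG than in PIS.

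Most tested genes of ion transport rose, and the hemidesmosome, integrin and laminin genes moved in both directions. SCNN1D, an epithelial sodium channel subunit gene, stood at 0.315, 0.129, 0.706, 4.03 and 0 in PIS and 69.8, 96.5, 91.2 and 34.8 in EG (log2 fold change 6 ± 0.58 SE, adjusted p = 0.000404), and SCNN1A also rose (1.47, adjusted p = 0.00462). CALB1, the calbindin gene of calcium-handling cells, stood at 0.892, 0, 0.25, 1.37 and 4.03 and 10.1, 31.7, 189 and 321 (log2 fold change 5.65 ± 0.97 SE, adjusted p = 0.00287), with EG replicates 3 and 4 again highest. The secreted carbonic anhydrase gene CA6 (3.94, adjusted p = 0.00462), the bicarbonate transporter gene SLC4A4 (1.35, adjusted p = 0.00406), the anion exchanger gene SLC26A4 (1.83, adjusted p = 0.0009) and the calcium pump gene ATP2B4 (1.45, adjusted p = 0.00297) were higher. ATP1B1, a sodium pump subunit gene, was lower (-0.94, adjusted p = 0.0035). In this list 8 of 11 were higher and 1 lower, and 24 were listed in the table, so the others did not pass the filter on low values. SCNN1D and CA6, near 0 in most PIS libraries, passed that filter only with the EG libraries. The share higher therefore depends partly on the filter. LAMB3, which encodes a chain of the laminin that anchors epithelium to its basement membrane, rose from 1.72, 1.83, 1.97, 4.51 and 0.181 in PIS to 16.3, 15.9, 27.4 and 33.1 in EG (log2 fold change 3.4 ± 0.48 SE, adjusted p = 0.00139). The partner chain gene LAMA3, chosen after its values were seen, was not called (-0.33, adjusted p = 0.485), and its sign changed with RPKM as deposited. ITGA3 (1.75, adjusted p = 0.00158) and ITGB6 (1.75, adjusted p = 0.00702), integrin genes, rose. Collagen IV and laminin genes of vessel and general basement membranes fell, including COL4A1 (-1.44, adjusted p = 0.00604), COL4A2 (-1.23, adjusted p = 0.0132) and LAMA4 (-1.83, adjusted p = 0.00192). The hemidesmosome, integrin and laminin list therefore held 6 higher and 10 lower of 30. The count lower was 6 without EG replicate 1 or 3, and with RPKM as deposited the counts were 12 higher and 6 lower.

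Epithelial junction genes were higher in 7 of 21 tested and lower in 0, with a median of 1.10. The gap junction genes GJA1 (42.5 ± 22.5 to 208 ± 39.9; 2.38, adjusted p = 0.000672) and GJB2 (2.52 ± 1.23 to 15.9 ± 3.3; 2.52, adjusted p = 0.000549) rose, and PKP2 (1.14, adjusted p = 0.0175; not called without EG replicate 1, adjusted p = 0.0598), CLDN7 (1, adjusted p = 0.0057) and TJP3 (0.98, adjusted p = 0.0155; not called without EG replicate 4, adjusted p = 0.05) were higher. EPCAM, an epithelial adhesion gene, rose from 65.1 ± 27.4 to 137 ± 15.5 (1.23, adjusted p = 0.0344; not called without PIS replicate 2 or EG replicate 1, 2, 3 or 4, adjusted p up to 0.0885). Among 7 keratins tested, KRT80 was called (1.94, adjusted p = 0.0155), while KRT14 (0.97, adjusted p = 0.159) and KRT15 (1.07, adjusted p = 0.115), keratins of basal epithelium, were not. The count of junction genes higher was 4 without EG replicate 1 or 4 and 11 without PIS replicate 5, and 17 with RPKM as deposited. Without PIS replicate 5, 11 junction genes and 3 of 7 keratins were higher, and the list medians were 0.81 and 0.58. KRT14 then changed by 0.53 (adjusted p = 0.22) and KRT15 by 0.58 (adjusted p = 0.0289).

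Genes of dividing cells rose in large numbers. Of 58 mitosis genes 49 were higher and 0 lower (median 1.08), and of 44 DNA replication genes 28 were higher and 0 lower (median 0.62), beside a background of 14.1% higher. TOP2A, the topoisomerase gene of dividing cells, stood at 3.25, 3.32, 5.46, 4.23 and 1.27 in PIS and 17.8, 12.6, 12.5 and 12.5 in EG (log2 fold change 1.93 ± 0.30 SE, adjusted p = 0.00197), with no overlap. The spindle kinase genes TTK (1.3, adjusted p = 0.0013) and PLK1 (1.6, adjusted p = 0.00212), the cyclin gene CCNB3 (1.76, adjusted p = 0.00155), the securin gene PTTG1 (1.6, adjusted p = 0.00213) and the condensin gene SMC2 (1.32, adjusted p = 0.00213) rose by more than 1. UHRF1, a factor that maintains DNA methylation at replication, had the smallest adjusted p of the replication list (3.94 ± 0.543 to 12.7 ± 2.09; 1.57, adjusted p = 0.000373), followed by the chromatin assembly gene CHAF1B (1.37, adjusted p = 0.000795) and the cyclin gene CCNE2 (1.14, adjusted p = 0.00201). EG replicate 1 was highest and replicate 4 lowest of the EG libraries in the mean of the mitosis list (0.88 and 0.36). The counts with RPKM as deposited were 55 and 39 higher, without PIS replicate 5 50 and 28, and without PIS replicate 4 48 and 27. Without EG replicate 1 they were 43 of 57 and 20 of 44, where 1017 of all 12350 genes were higher. The replication count was 22 without EG replicate 3. It was 5 of 42 without EG replicates 1 and 4, where 225 of all 12110 genes were higher.

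Of genes linked to epithelial stem cells and quiescence, 3 of 25 were higher and 5 lower, beside 14.1% and 13.6% of all genes. LRIG1, which marks slowly cycling epithelial cells (4.71 ± 2.38 to 1.69 ± 0.521; -1.18, adjusted p = 0.0123), the growth arrest gene BTG1 (-0.83, adjusted p = 0.00471), the insulin-like growth factor binding gene IGFBP5 (-1.85, adjusted p = 0.023; not called without EG replicate 3, adjusted p = 0.0538) and CD34 (-1.82, adjusted p = 0.00265), which endothelium also expresses, were lower. GPM6A (3.01, adjusted p = 0.00107), PROM1 (0.90, adjusted p = 0.01) and the cell cycle inhibitor gene CDKN1B (0.78, adjusted p = 0.0114) were higher. LGR5 did not pass the filter. The count higher was 5 without PIS replicate 5.

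The falls included many genes of vessels, smooth muscle, nerve and connective tissue. Endothelial genes were lower in 24 of 28 tested and higher in 0, with a median of -1.68, beside a background of 13.6% lower. PECAM1, an adhesion gene of all endothelium, fell from 20.3, 30.6, 19.8, 11.9 and 40.7 in PIS to 2.58, 5, 4.59 and 7.41 in EG (log2 fold change -2.18 ± 0.35 SE, adjusted p = 0.00213). The transcription factor gene ERG (13.7 ± 4.8 to 2.62 ± 1.17; -2.2, adjusted p = 0.00115), the lymphatic gene LYVE1 (-2.07, adjusted p = 0.00107), RAMP2 (-2.28, adjusted p = 0.00171), ESAM (-1.7, adjusted p = 0.00182) and ROBO4 (-1.59, adjusted p = 0.0021) fell with it. PIS replicate 4 was the lowest PIS library and EG replicate 4 the highest EG library in the summed endothelial list (213.8 and 161.3 scaled RPKM), and the groups did not overlap. The count was 24 without PIS replicate 5 and 27 without PIS replicate 4.

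Smooth muscle and pericyte genes were lower in 15 of 25 and higher in 1 (median -0.94). MYH11, encoding the myosin heavy chain of smooth muscle, fell from 12.7, 22.8, 16.2, 6.95 and 19.8 to 0.528, 1.97, 1.15 and 1.58 (log2 fold change -3.13 ± 0.35 SE, adjusted p = 0.00054), and the actin gene ACTG2 from 133 ± 51.3 to 15.7 ± 7.76 (-3.16, adjusted p = 0.00142). The desmin gene listed as DES.1 (-3.28, adjusted p = 0.00125), LMOD1 (-2.41, adjusted p = 0.000696), the pericyte gene RGS5 (-2.21, adjusted p = 0.00131) and the tropomyosin gene TPM2 (-1.59, adjusted p = 0.000602) fell. CNN1, the calponin gene of the same contractile programme, held 35.1 ± 5.41 to 34.8 ± 2.35 (0.0008, adjusted p = 0.997; chosen after its values were seen). HSPB6, a small heat shock gene, rose (2.39, adjusted p = 0.00174).

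Schwann cell and nerve genes were lower in 9 of 17 and higher in 0 (median -1.36). SOX10, the transcription factor gene of Schwann cells, fell from 3, 9.91, 9.92, 8.74 and 23.9 to 0.124, 2.46, 0.758 and 1.6 (log2 fold change -2.71 ± 0.55 SE, adjusted p = 0.00586). S100B (-1.36, adjusted p = 0.00547), ERBB3 (-1.43, adjusted p = 0.00846), FOXD3 (-2.02, adjusted p = 0.00866) and PMP22 (-1.67, adjusted p = 0.0157; not called without EG replicate 1, adjusted p = 0.0519) also fell. MBP, the myelin basic protein gene, was not called (12.6 ± 12.4 to 2.22 ± 1.47; -1.73, adjusted p = 0.118). PIS libraries varied widely here, since the summed list ran from 172 scaled RPKM in replicate 1 to 968 in replicate 5, and the highest EG library (186, replicate 2) was above PIS replicate 1. The count lower was 5 without EG replicate 1.

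Fibroblast and loose connective tissue genes were lower in 22 of 36 and higher in 2 (median -1.01), and collagens in 15 and 2 of 24 (median -0.86). Besides SFRP2, these were led by the fibroblast protease gene FAP (15.7 ± 1.54 to 4.81 ± 1.21; -1.64, adjusted p = 0.000453), CLEC3B (-2.02, adjusted p = 0.00157), THY1 (-1.5, adjusted p = 0.00166) and the proteoglycan gene DCN, which fell from 646 ± 151 to 283 ± 40.1 (-1.17, adjusted p = 0.00213). VIM, the mesenchymal intermediate filament gene, fell from 969.6 ± 217 to 471 ± 84 (-1.03, adjusted p = 0.00421). COL1A1 went from 3657 ± 999 to 1796 ± 427 (-1.01, adjusted p = 0.0152; not called without EG replicate 1, adjusted p = 0.054), COL5A3 from 11.9 ± 6.07 to 1.88 ± 1.02 (-2.36, adjusted p = 0.00239), and COL15A1 (-1.55, adjusted p = 0.00054), COL16A1 (-1.34, adjusted p = 0.00438) and COL6A1 (-1.21, adjusted p = 0.00529) fell. The count of matrix metalloproteinases and inhibitors lower was 6 of 22, and 3 without EG replicate 1. COL9A2 (0.106 ± 0.104 to 4.29 ± 2.69; 2.74, adjusted p = 0.00213) and COL11A2 (1.36, adjusted p = 0.0019), collagens known from cartilage, rose from near 0. FBLN2, a basement membrane and matrix glycoprotein gene, rose from 28.3 ± 5.26 to 65.7 ± 13.2 (1.2, adjusted p = 0.00108). The matrix protease gene MMP2 (-1.28, adjusted p = 0.00438), MMP19 (-1.66, adjusted p = 0.00893) and MMP23B (-1.07, adjusted p = 0.0139) fell, and the inhibitor gene TIMP4 rose from 4.97 ± 2.76 to 24.3 ± 6.17 (2.26, adjusted p = 0.00135). SBSPON (-3.05, adjusted p = 0.00168), MFAP5 (-2.8, adjusted p = 0.00244), EGFL6 (-2.75, adjusted p = 0.00555), PTGIS (-2.88, adjusted p = 0.000547), the adrenergic receptor gene ADRA2A (-2.76, adjusted p = 0.00207), NRN1 (-2.77, adjusted p = 0.00264) and CDH22 (-2.89, adjusted p = 0.00472) were also among the 15 greatest falls.

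Complement genes were among the falls. CFD, which encodes complement factor D and is also secreted by fat cells, fell from 748, 611, 192, 191 and 914 in PIS to 15, 59, 58.2 and 51.1 in EG (log2 fold change -3.41 ± 0.57 SE, adjusted p = 0.00258), the greatest fall among the named genes. C7, a terminal complement component gene, fell from 35.5 ± 17.6 to 4.54 ± 2.81 (-2.92, adjusted p = 0.00205), and SERPING1, the C1 inhibitor gene, also fell (-1.58, adjusted p = 0.000726). The macrophage genes C1QA (0.44, adjusted p = 0.238) and CSF1R (0.44, adjusted p = 0.328) were not called, while the phagocyte receptor gene MERTK (-1.73, adjusted p = 0.000595) and LGMN (-0.58, adjusted p = 0.021; not called without EG replicate 1 or 3, adjusted p up to 0.0748; with RPKM as deposited, adjusted p = 0.212) were lower. The macrophage and complement list, which does not hold C7, had 4 of 14 tested genes lower and 0 higher. Of 12 retinoid genes 6 were lower and 1 higher. They included the retinoid receptor gene RXRG (-2.12, adjusted p = 0.00262), DHRS3 (-1.06, adjusted p = 0.00939), RARRES1 (-1.34, adjusted p = 0.00295) and the retinoic acid synthesis gene ALDH1A2 (2.15 ± 1.35 to 0.49 ± 0.217; -1.31, adjusted p = 0.0142; not called without EG replicate 1, adjusted p = 0.0515). The count lower was 3 without EG replicate 1.

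Of 15 dentin and bone genes tested, 5 were higher and 4 lower (median 0.00). SP7, a transcription factor gene of bone and tooth matrix cells, rose from 1.87 ± 1.49 to 17.1 ± 9.19 (2.96, adjusted p = 0.00262). PHEX, a phosphate-regulating protease gene, stood at 6.72, 3.84, 5.5, 9.49 and 0.643 in PIS and 42.4, 40.9, 36.7 and 19.3 in EG (log2 fold change 2.87 ± 0.54 SE, adjusted p = 0.00436). PHOSPHO1 (2.11, adjusted p = 0.0175; not called without EG replicate 1 or 2, adjusted p up to 0.0583), ENPP1 (1.61, adjusted p = 0.00207) and ANKH (1.16, adjusted p = 0.0019), which set phosphate and pyrophosphate levels, were higher. Collagen I genes, SPARC (-1.04, adjusted p = 0.0067) and BMP1 were lower.

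Of other tissues, 4 of 12 cartilage genes were higher and 2 lower. The counts were 2 and 1 of 10 osteoclast genes, and 1 and 2 of 9 lymphocyte and antigen presentation genes. Of all tested genes, 14.1% were higher and 13.6% lower. Without EG replicate 1, 2 or 3, the count of cartilage genes higher was 0. Part of that drop came from the filter, since COL9A2 kept its call in the 20 of 25 settings that tested it.

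Guidance genes moved in both directions, 9 higher and 9 lower of 39. The ephrin receptor gene EPHA2 (5.6 ± 1.91 to 19.5 ± 5.49; 1.73, adjusted p = 0.00135), ROBO1 (1.43, adjusted p = 0.00217) and SEMA6A (1.39, adjusted p = 0.00287) were higher. The endothelial receptor gene EPHB4 (-0.89, adjusted p = 0.00381), SEMA3B (-1.74, adjusted p = 0.00251), PLXNA2 (-1.51, adjusted p = 0.00542) and the neuropilin gene NRP2 (-1.42, adjusted p = 0.00574) were lower.

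Of the called genes named here, the PIS and EG ranges overlapped for BARX2, COL1A1, DKK1, DLX5, ETV1, FGF1, LFNG, LGMN, MSX1, PHOSPHO1, PMP22, RSPO3, SCUBE1, WNT10A, WNT2 and WNT7A.

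Other genes among the 15 greatest rises have varied known roles. SALL1, a zinc finger factor gene, rose from 0.3 ± 0.226 to 19.6 ± 12.6 (4.43, adjusted p = 0.000404), and NPTX2, a neuronal pentraxin gene, from 1.09 ± 1.23 to 38.6 ± 23.4 (4.78, adjusted p = 0.000813). BLNK, an adaptor gene of B cell receptor signalling, rose from 2.69 ± 5.17 to 33.6 ± 5.85 (4.54, adjusted p = 0.00251). The B cell genes CD79A and CD79B stayed under 1 scaled RPKM in every library. They are only some of the genes of B cells, and which cells gave the BLNK rise was not tested. NOXO1, an oxidase organiser gene, rose from 1.38 ± 2.97 to 18.4 ± 10.7 (4.21, adjusted p = 0.00329).

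The counts of several housekeeping groups depended on scaling. Under the main settings they stand beside 14.1% of all tested genes higher and 13.6% lower. Glycolysis and hypoxia genes were higher in 7 of 23 and lower in 0, led by HIF1A, the hypoxia-inducible factor gene (46.3 ± 13.4 to 112 ± 17.1; 1.31, adjusted p = 0.00201), TPI1 (0.70, adjusted p = 0.00206) and ENO1 (0.64, adjusted p = 0.00244). Secretory pathway genes were higher in 11 of 40 and lower in 2, with HYOU1, a chaperone gene, at 0.64, adjusted p = 0.00388. Oxidative phosphorylation had 6 higher and 1 lower of 46, with a share higher close to that of all genes. Proteasome and chaperonin genes had 8 and 0 of 38. Cytosolic ribosomal protein genes were lower in 40 of 70 and higher in 0 (median -0.46), with RPS20 at -0.77, adjusted p = 0.00603 (adjusted p = 0.0684 with quantile normalization). With RPKM as deposited 5 were lower and 0 higher (median -0.11), and after quantile normalization 5 and 2 (median -0.02), so the fall of this group depended on the scaling. The count lower was also 13 without EG replicate 3 and 17 without EG replicate 1 or 4 and 26 without PIS replicate 2 and 62 without PIS replicate 1. Over all genes, 1060 of 12363 were lower without EG replicate 3, 1000 of 12350 without EG replicate 1 and 1241 of 12370 without EG replicate 4. The totals lower were 1542 of 12412 without PIS replicate 2 and 1654 of 12415 without PIS replicate 1. With RPKM as deposited, the counts higher were 13 glycolysis, 29 secretory, 31 oxidative phosphorylation and 33 proteasome and chaperonin genes. Under that setting 4929 of all 12489 tested genes were higher and 879 lower. Ribosome biogenesis genes were higher in 6 of 33 and lower in 2 (1 without EG replicate 1, 2 or 3 and 2 without PIS replicate 5 or EG replicate 4 and 3 without PIS replicate 2 higher), and amino acid synthesis and transfer RNA charging genes in 5 and 1 of 30 (3 without EG replicate 1, 3 or 4 higher). Leaving out 1 library also moved the counts higher, to 5 without EG replicate 1 or 3 and 7 without EG replicate 4 for secretory genes, 3 without EG replicate 1, 2 or 3 for oxidative phosphorylation, and 4 without PIS replicate 1 or EG replicate 1, 2 or 3 and 5 without EG replicate 4 for proteasome and chaperonin genes.

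**Figure D5:**
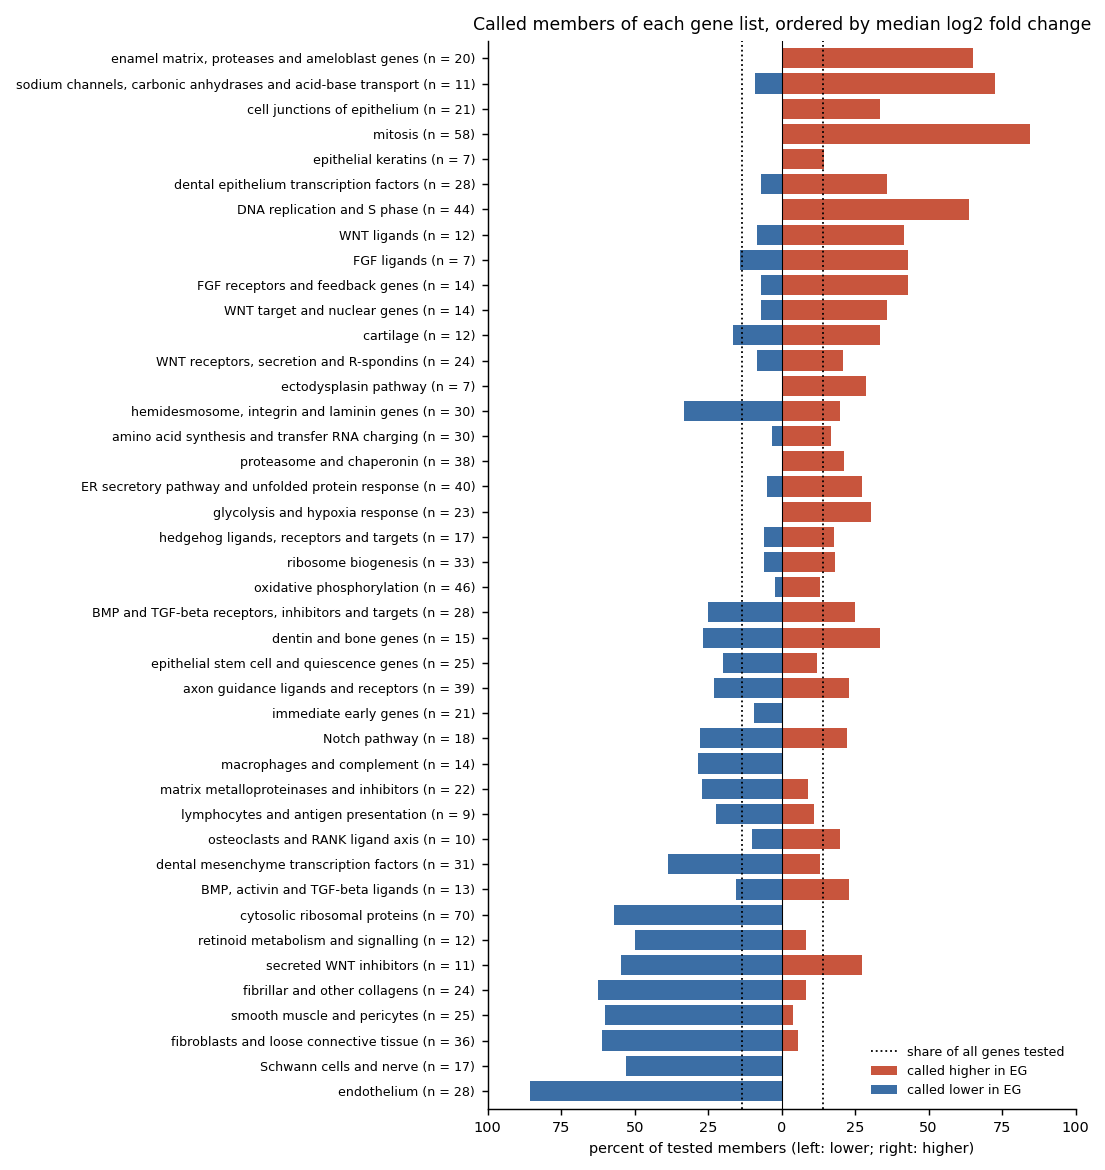
Bars give the percentage of tested members of each list called higher (right) or lower (left) in EG, ordered by the list's median log2 fold change, with dotted lines at the shares of all genes tested (14.1% and 13.6%). Mitosis and enamel genes extend farthest right with ion transport genes, and endothelial genes farthest left.

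Immediate early genes, which respond within minutes to stimulation of a cell, differed between libraries of the same group. The 21 tested members summed to 198, 296, 4285, 3653 and 759.7 scaled RPKM in PIS replicates 1 to 5 and to 1140.0, 317, 1044 and 1298 in EG replicates 1 to 4. The groups overlapped, 2 members were lower and 0 higher, and the lower genes were CTGF (-1.96, adjusted p = 0.00142) and KLF2 (-1.68, adjusted p = 0.00672), a gene that endothelium also expresses.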

How the data were processed

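The submitters' processing notes name TopHat2 2.1.0 and Partek 3 as tools, and genome build, annotation and strand setting are stated in no label. The authors deposited RPKM per gene and library, with 1 row of alignment totals that was left out of the tests. RPKM are not counts, so no count model was used. For the 9 libraries, genes with an RPKM of 1 or more in at least 3 were kept, divided by median-ratio factors, transformed as log2(scaled RPKM + 0.5), and compared with limma 3.58.1 in R 4.3.3 (empirical Bayes with a mean trend, two-sided, Benjamini-Hochberg adjustment over all 12489 genes). On simulated data with 200 of 12489 genes changed, 77% of changes of 1 and 97% of changes of 2 on the log2 scale were recovered. Of the unchanged genes, 7 were called. Whether these figures hold for the 9 libraries, in which 3462 genes were called, was not tested. Initiation and replacement tooth libraries were scaled alike for description only. Members and gene lists were chosen with earlier results of these data known. The rule for named genes took the 15 greatest rises and 15 greatest falls without overlap, up to 6 called members per list and direction, lists of 14 or fewer tested members, and a set of anchor genes; members not described singly are covered by the counts. Alternatives were other pseudocounts, filters, scalings, fits and each library left out. Results for some genes are not reported here.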

Additional observations from a re-analysis of the deposited data

Results flagged for a closer look

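Values of the named genes were searched for a library far from the others of its group on the log2 scale (Dixon's gap over range, 95% critical value), which chance flags in about 1 of 20 groups of values. Of 450 gene and group sets 48 were flagged (10.7%), and they gathered in a few libraries. Some named genes, such as CDH1 and HBA1, were chosen because PIS replicate 5 set them apart. The share flagged is therefore a description and cannot be weighed against the chance rate. All values are scaled RPKM, set against the range of the other libraries of the group.

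EG replicate 1 was the lowest of its group for ACTG2 (4.4 against 16.8 to 21.6), BOC (7.41 against 14.1 to 15.4), CFD (15 against 51.1 to 59), CHRDL1 (2.96 against 15.3 to 17.5), COL4A1 (12.5 against 27.7 to 31.7), COL4A2 (6.48 against 15.4 to 17.6), COL6A1 (80.1 against 156 to 172), CSF1R (1.28 against 2.34 to 2.45), DCN (223 against 298 to 308), EGFL6 (0.322 against 3.04 to 4.03), FAP (3.02 against 5.17 to 5.65), FGF1 (1.84 against 2.51 to 2.61), LEF1 (7.78 against 12.3 to 12.9), LMOD1 (0.281 against 1.31 to 1.42), MMP23B (3.27 against 6.59 to 7.17), SERPING1 (2.87 against 4.87 to 5.31) and SPARC (658 against 1010.0 to 1100.0). It was the highest of its group for SP6 (124 against 92.4 to 95.4), SPRY4 (20.5 against 10.8 to 11.9) and TOP2A (17.8 against 12.5 to 12.6). Many of these genes are named above as genes of connective tissue or vessels.

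EG replicate 2 was the lowest of its group for ACVR2B (0.848 against 1.62 to 1.79), GJA1 (149 against 224 to 231), KREMEN1 (9.94 against 14.2 to 14.5), SOSTDC1 (97.7 against 128 to 133) and WNT3A (1.64 against 2.74 to 3.02). It was the highest of its group for EPHB4 (7.09 against 5.25 to 5.43) and MSX1 (38.2 against 21.6 to 22.4). EG replicate 4 was the highest of its group for TPI1 (179 against 149 to 151).

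PIS replicate 5, the library with the lowest epithelial marker sum, was the lowest of its group for AXIN2 (8.32 against 13.7 to 16.5), CDH1 (0.796 against 11.6 to 26.2), EPCAM (19.5 against 60.9 to 87.6), IL17RD (0.133 against 1.46 to 1.87), KRT15 (21.8 against 96.9 to 150.0), TP63 (1.08 against 8.63 to 16.1) and WLS (26.6 against 40.5 to 47.2). It was the highest of its group for EPHB4 (16 against 9.71 to 10.7), HBA1 (315 against 2.6 to 10.2) and TGFB2 (92.5 against 35 to 46.2).

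PIS replicate 4, the pre-initiation library nearest to EG on the first principal component, was the highest of its group for BLNK (11.9 against 0 to 0.556), CA6 (7.24 against 0 to 0.386), DLX3 (55.7 against 5.74 to 10.8), FGF3 (0.535 against 0 to 0.0862), GJA1 (82.5 against 28 to 35.3), NOXO1 (6.7 against 0 to 0.102), SHH (25.3 against 0 to 0.268) and SP6 (22.8 against 0 to 0.475).

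PIS replicate 1 was the highest of its group for FGF10 (4.58 against 2.4 to 2.7). PIS replicate 3 was the highest of its group for FST (50.4 against 26.1 to 30.1).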

How the results depend on the processing

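The count of called genes (3462, with 1760 higher and 1702 lower) stayed within 1.5 times under other pseudocounts, no filter, quantile and upper-quartile scaling, fits of 12 or 17 libraries, array weights and no trend (3336 to 4747). It was 2146 (948 higher) of the 7479 genes with a mean RPKM of 5 or more, 5808 (4929 higher, 879 lower) with RPKM as deposited, and 1330 (689 higher, 641 lower) with a log2 fold change of at least 1 in size. Leaving out 1 library in turn gave 2017 to 3486 called genes, 1017 to 1782 higher and 1000 to 1725 lower, and leaving out EG replicates 1 and 4 together gave 537 (225 higher, 312 lower). Same-numbered libraries did not deviate together (correlations of -0.112 to 0.087, 0 of 4 pairs over 0.1), so the numbers were not taken to pair them, and the replicate block gave 2609 called genes. Between libraries of different number the correlations ran from -0.249 (PIS replicate 3 with EG replicate 2) to 0.338 (PIS replicate 5 with EG replicate 2). Whether such libraries share a source was not tested. Of 200 named genes called, 177 stayed called without each library in turn, 108 stayed called in every setting, and 200 kept their sign. These counts, and the lost calls given next, cover only settings in which a gene passed the filter. COL9A2, for example, was tested in 20 and COL11A2 in 19 of 25 settings. The calls lost were 86 without EG replicates 1 and 4, 25 with the fold change threshold, 15 in the fit of 17 libraries, 11 with no filter and 10 with the replicate block. The named calls lost with RPKM as deposited and with quantile normalization stand beside their genes, apart from WNT2 and LGMN with quantile normalization (adjusted p = 0.113 and 0.0505). Uncalled genes that passed the test without 1 library were EDARADD (0.71, adjusted p = 0.0127) and MBP (-2.35, adjusted p = 0.0166) without PIS replicate 1, BMP2 (-0.57, adjusted p = 0.0337) without PIS replicate 3, and AXIN2, CDH1, HBA1, KRT15 and TP63 without PIS replicate 5. The same 5 genes passed with the replicate block (AXIN2 -0.42, adjusted p = 0.0399). Replicate number 5 occurs only in PIS, so the block takes up PIS replicate 5 and sets it aside in the comparison. It is therefore not a check apart from leaving that library out. Among the named genes, signs changed only for uncalled ones. Of all 3462 called genes, 42 had the opposite sign with RPKM as deposited and 13 after quantile normalization. Of these, 0 were called there in the opposite direction. With RPKM as deposited AXIN2 was 0.087, LAMA3 0.0074 and PAX9 0.29, and PAX9 was 0.015 with upper-quartile scaling. In the fit of 17 libraries CNN1 was -0.011 and LEF1 -0.0043, and LEF1 was -0.051 with array weights. With the replicate block BMP4 was -0.097 and LEF1 -0.28. Without PIS replicates 4 and 5 LEF1 was -0.15 and PAX9 0.074. Leaving out 1 library gave -0.11 to 0.34 for BMP4, -0.087 to 0.057 for CNN1, -0.064 to 0.19 for DUSP6, -0.95 to 0.053 for EDA, -0.069 to 0.32 for GLI1, -0.29 to 0.19 for LEF1 and -0.15 to 0.11 for PAX9. The cause of these changes was not tested. No counting interval is given, since the values are RPKM and not counts, and the size of changes from near 0 depends on the pseudocount.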

Other observations

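Genes of cholesterol synthesis and uptake were higher in EG. This list was put together after values were seen, so its count is a description: of 22 tested members 18 were called higher and 0 lower, with a median of 1.02, beside 14.1% of all genes higher. The squalene epoxidase gene SQLE changed by 2.02 on the log2 scale, the demethylase gene CYP51A1 by 1.5, the farnesyl diphosphate synthase gene FDPS by 1.36 and the isomerase gene IDI1 by 1.27. The transcription factor gene SREBF2, which drives this pathway, changed by 1.07 and the lipoprotein receptor gene LRP8 by 1.64.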
